A study of Mus musculus with 16 samples.

Results

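The genes described here are 8 that carry the output of the circadian clock in liver: Dbp, Tef, Hlf, Nfil3, Ciart, Bhlhe40, Bhlhe41 and Usp2. They were chosen by name, as the probe sets paired with exactly 1 gene symbol from this list, and all 8 were measured among 19935 genes, by 9 probe sets, since Ciart has 2. RNA came from the livers of male mice, all on a mixed Sv129/C57Bl/6 background and either wild-type or knockout for PPARβ/δ, a nuclear receptor for fatty acids encoded by Ppard. Mice of each genotype were fed or had fasted for 24 h, and each liver was hybridised to 1 Affymetrix whole-transcript array. Wild-type mice numbered 4 fed and 5 fasted, and knockout mice 4 fed and 3 fasted; they are named here by the replicate numbers of the labels, which call them biological replicates. The sources used here do not give the age of the mice, the time of day at which livers were taken or the part of Ppard that was deleted.

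The core clock of each cell is a loop in which CLOCK and BMAL1 (encoded by Arntl) switch on Per and Cry genes, whose proteins then switch CLOCK and BMAL1 off. CLOCK and BMAL1 bind E-boxes and through them also drive output regulators, which pass the rhythm on to the genes of metabolism. DBP, TEF and HLF are output activators of the PAR bZIP family that bind D-boxes, and NFIL3 (E4BP4) is a repressor that binds the same sites and peaks in the opposite phase. In liver these factors are known for the daily rhythm of drug, heme and lipid metabolism. Ciart, Bhlhe40 and Bhlhe41 encode repressors that act back on CLOCK and BMAL1. Usp2 encodes no transcription factor but a deubiquitinase, and its RNA follows the clock.

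Values are log2 intensities of the authors' normalized data, so a difference of 1 is a factor of 2 in RNA, and the level of one gene cannot be read against that of another. Mean ± SD is given over mice. A difference is the mean of one group minus that of another, ± the standard error of a limma fit over all 16 arrays, and it was called at an adjusted p under 0.05 (Benjamini-Hochberg over 19935 genes). In wild-type mice 6 of the 8 genes were called between fasted and fed mice, 5 up and 1 down with fasting. Of all genes tested 9.22% were called, 3.3% up and 5.92% down. For each of these 6, every fasted mouse lay on one side of every fed mouse, as for 12.2% of all genes. In the same comparison the median difference of the 8 genes was 1.01, beside 0.02 over all genes. In knockout mice 1 of the 8 was called, up, where 3.67% of all genes were called (1.87% up and 1.8% down), and the median difference was 0.52, beside -0.02 over all genes. No member was called between genotypes in either feeding state. The time of day of sampling is not given, so a difference in it between groups cannot be told apart from fasting or genotype. This holds for every difference given below.

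**Figure D1:**
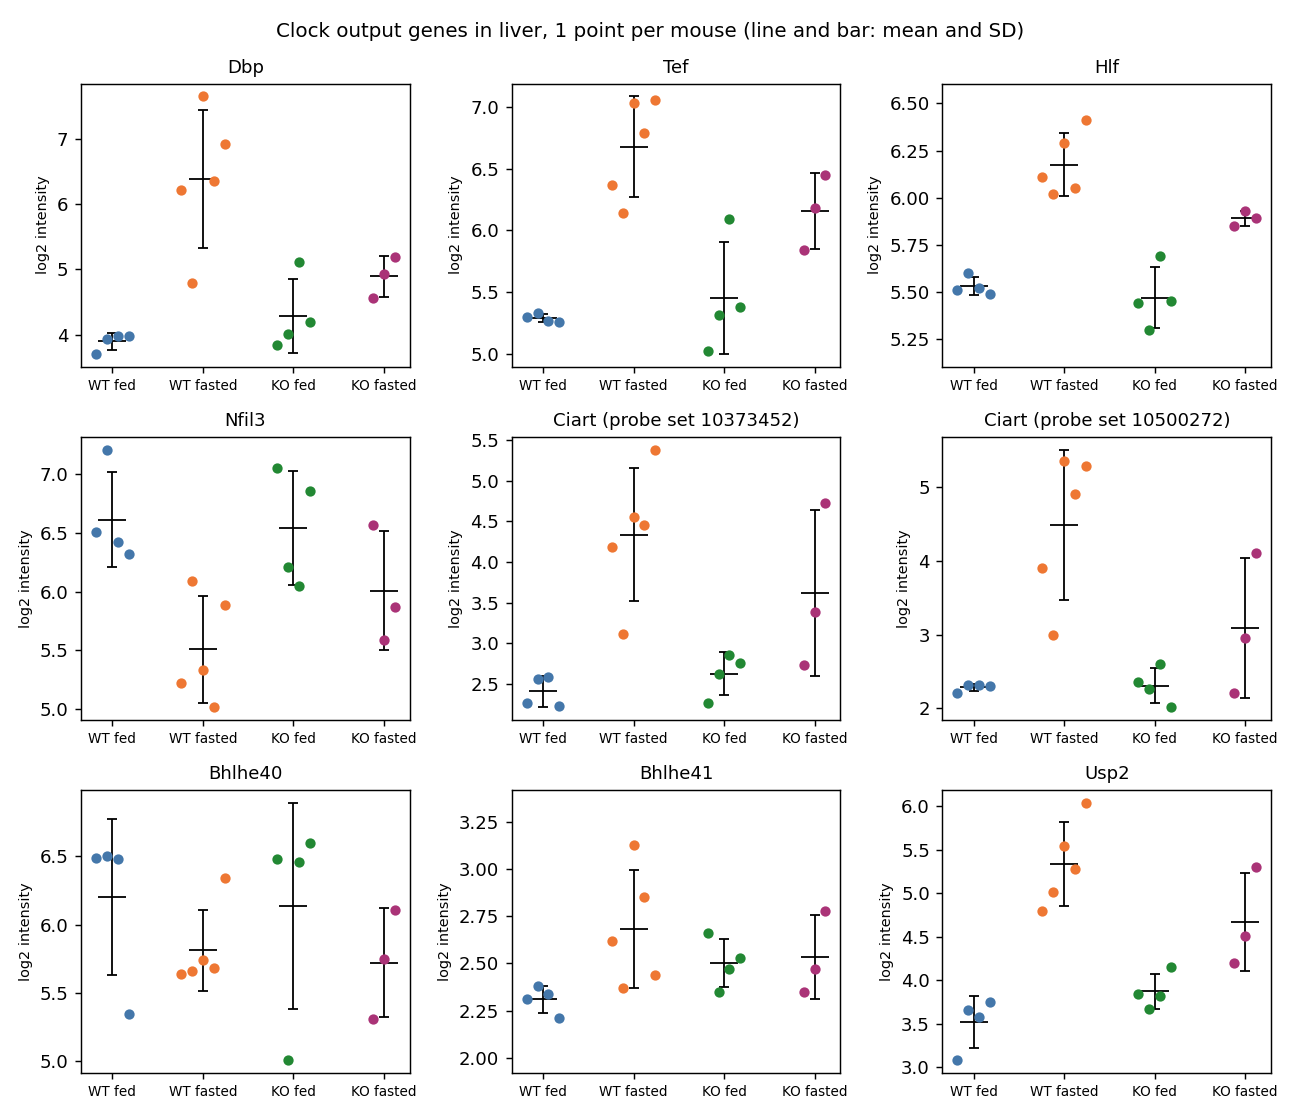
Log2 intensity (y axis) of the 9 probe sets of the clock output genes in each mouse, by group (x axis), with 1 point per mouse and the group mean and SD as a line and bar. In wild-type mice Dbp, Tef, Hlf, Ciart and Usp2 lie higher in every fasted mouse than in every fed mouse, and Nfil3 lies lower in every fasted mouse.

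Dbp, an activator whose RNA swings widely over the day in liver, gave 3.71, 3.93, 3.98 and 3.98 in fed wild-type mice and 6.22, 4.79, 7.65, 6.36 and 6.92 in fasted wild-type mice. Every fasted mouse lay above every fed mouse. The mean went from 3.90 ± 0.13 (SD, n = 4) to 6.39 ± 1.06 (SD, n = 5), a rise of 2.49 ± 0.40 or 5.61-fold (limma adjusted p = 0.00068). In knockout mice Dbp gave 3.84, 4.01, 5.11 and 4.19 when fed and 4.57, 4.93 and 5.19 when fasted. Fed knockout mouse 3 lay above 2 of the 3 fasted knockout mice, so the groups overlapped. The difference was 0.61 ± 0.45 and was not called (limma adjusted p = 0.594, 95% interval of the difference -0.34 to 1.56). It was 0.88 without fed knockout mouse 3, the highest value over single mice left out, and was not called there either.

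Tef, a second PAR bZIP activator, was tightly grouped in fed wild-type mice, at 5.30, 5.33, 5.27 and 5.26. The fasted wild-type mice gave 6.37, 6.14, 7.03, 6.79 and 7.05, all above the fed ones. The rise was 1.38 ± 0.21, or 2.61-fold (limma adjusted p = 0.000393). Knockout mice gave 5.03, 5.32, 6.09 and 5.38 when fed and 5.84, 6.18 and 6.45 when fasted. As with Dbp, fed knockout mouse 3 was the one that reached into the fasted range. The difference in knockout mice, 0.70 ± 0.23, was not called (limma adjusted p = 0.123), but without fed knockout mouse 3 it was 0.91 and passed (limma adjusted p = 0.0195).

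Hlf, the third of these activators, moved least of these activators and with little spread. Fed wild-type mice gave 5.51, 5.60, 5.52 and 5.49, and fasted wild-type mice 6.11, 6.02, 6.29, 6.05 and 6.41. The groups did not overlap, and the rise was 0.65 ± 0.09, or 1.56-fold (limma adjusted p = 0.000206). Knockout mice gave 5.44, 5.30, 5.69 and 5.45 when fed and 5.85, 5.93 and 5.89 when fasted. These groups did not overlap either, and Hlf was the 1 member called in knockout mice, with a rise of 0.42 ± 0.10 or 1.34-fold (limma adjusted p = 0.0264). The call was close to the threshold: it was lost without any single mouse of the 2 groups except fed knockout mouse 3, with adjusted p between 0.0613 and 0.113, while the difference stayed between 0.36 and 0.49.

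Nfil3, the repressor that competes with these activators for D-boxes, went the other way. Fed wild-type mice gave 6.51, 7.21, 6.42 and 6.32, and fasted wild-type mice 5.22, 6.09, 5.33, 5.02 and 5.89. Every fasted mouse lay below every fed mouse, and the mean fell by 1.10 ± 0.27 on the log2 scale, which is 2.15-fold (limma adjusted p = 0.0143). Without fed wild-type mouse 2, the highest, the difference was -0.91 and missed the threshold (limma adjusted p = 0.0564). Knockout mice gave 7.05, 6.21, 6.05 and 6.86 when fed and 6.57, 5.59 and 5.87 when fasted, and the groups overlapped. The difference there, -0.53 ± 0.31, was not called (limma adjusted p = 0.456), and ran from -0.81 without fasted knockout mouse 1 to -0.32 without fasted knockout mouse 2. The high fed knockout mice were numbers 1 and 4, the same 2 that had the highest acute phase scores. That score, the mean over 11 acute phase genes of the log2 value minus the gene's mean over all mice, was 1.71 and 2.68 in them, -0.33 and 0.75 in fed knockout mice 2 and 3, and -1.01 to 0.14 in the other 3 groups. Without mice 1 and 4 the Nfil3 difference in knockout mice was -0.12 (limma adjusted p = 0.947). The part of the acute phase state in the Nfil3 values was not tested.

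The difference between Dbp and Nfil3 within a mouse shows how far the activator and the repressor moved apart, although its zero has no meaning because the scale differs between probe sets. It was -3.28 to -2.34 in fed wild-type mice. In fasted wild-type mice it was 0.99, -1.3, 2.32, 1.34 and 1.02, above every fed mouse of that genotype. Fed knockout mice had -3.21, -2.2, -0.94 and -2.66, and fasted knockout mice -2, -0.66 and -0.68. Each fasted knockout mouse thus lay above every fed wild-type mouse and below 4 of the 5 fasted wild-type mice, and fed knockout mouse 3 lay within the span of the fasted knockout mice.

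Ciart (CHRONO), a repressor that acts on CLOCK and BMAL1, was measured by 2 probe sets that carry the same accessions. On the brighter one, used in the fit, fed wild-type mice gave 2.26, 2.56, 2.59 and 2.23, below 2.79, the level under which genes were taken as dim. Fasted wild-type mice gave 4.18, 3.12, 4.55, 4.45 and 5.38, all higher. The rise was 1.93 ± 0.37, or 3.8-fold (limma adjusted p = 0.00315), and since the fed level was dim this may understate the change. The second probe set gave 2.21, 2.31, 2.32 and 2.30 in fed wild-type mice and 3.90, 2.99, 5.35, 4.91 and 5.29 in fasted wild-type mice. Its rise was 2.20 ± 0.41 (limma adjusted p = 0.00249 over all probe sets with 1 symbol).

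In knockout mice the first Ciart probe set gave 2.26, 2.62, 2.86 and 2.76 when fed and 2.73, 3.38 and 4.73 when fasted, with an overlap at fasted mouse 1. The second gave 2.35, 2.26, 2.60 and 2.02 when fed and 2.21, 2.96 and 4.10 when fasted, with the same mouse low. The differences were 0.99 ± 0.43 and 0.78 ± 0.47, and neither was called (limma adjusted p = 0.268 and 0.48). On the first probe set the difference was 0.43 without fasted knockout mouse 3, the highest, and 1.43 without mouse 1, the lowest. The knockout minus wild-type difference among fasted mice was -0.73 ± 0.41 on the first probe set and -1.40 ± 0.45 on the second, again with no call (limma adjusted p = 0.585 and 0.247). On the first probe set this difference was -1.28 without fasted knockout mouse 3 and -0.28 without mouse 1. The probe sets had one direction in both comparisons, and the dimmer one gave the smaller fasting difference in knockout mice and the larger genotype difference in fasted mice.

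Bhlhe40 and Bhlhe41 (DEC1 and DEC2) encode bHLH repressors that bind E-boxes. Bhlhe40 gave 6.49, 6.50, 6.48 and 5.35 in fed wild-type mice and 5.64, 5.66, 5.74, 5.68 and 6.34 in fasted wild-type mice. Most fed mice were near 6.5 and most fasted mice near 5.7, with fed mouse 4 low and fasted mouse 5 high. Fed knockout mice gave 6.48, 5.01, 6.46 and 6.60, with mouse 2 low, and fasted knockout mice 5.31, 5.75 and 6.11. The fasting difference was -0.40 ± 0.31 in wild-type mice (limma adjusted p = 0.475) and -0.42 ± 0.35 in knockout mice (limma adjusted p = 0.652). Over single mice left out it ran from -0.68 to -0.30 in wild-type and from -0.79 to -0.21 in knockout mice, so that 1 mouse moved it by more than 1.5 times. Fed wild-type mouse 4 also had the highest score of the 6 stellate cell and fibroblast markers, 0.85, where the other fed wild-type mice had -0.14 to 0.24. Fed knockout mouse 2, low in Bhlhe40 as well, scored -0.14 on these markers. Fasted wild-type mouse 5, high in Bhlhe40, scored -0.02 on them and 2.36 on 6 pancreas markers. The part of such differences between mice in the Bhlhe40 values was not tested.

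Bhlhe41 was dim on most arrays. Fed wild-type mice gave 2.31, 2.38, 2.34 and 2.21, fasted wild-type mice 2.62, 2.37, 3.13, 2.85 and 2.44, fed knockout mice 2.66, 2.35, 2.47 and 2.53, and fasted knockout mice 2.35, 2.47 and 2.78. Only fasted wild-type mice 3 and 4 exceeded the dim limit of 2.79. The fasting difference was 0.37 ± 0.13 in wild-type mice (limma adjusted p = 0.0988) and 0.03 ± 0.15 in knockout mice (limma adjusted p = 0.969). Without fasted wild-type mouse 2 the wild-type value was 0.45 and passed (limma adjusted p = 0.0441), and that comparison then had 7 members called in place of 6.

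Usp2 gave 3.08, 3.66, 3.58 and 3.75 in fed wild-type mice and 4.80, 5.01, 5.54, 5.28 and 6.04 in fasted wild-type mice. The groups were well apart, and the rise was 1.82 ± 0.24 or 3.52-fold (limma adjusted p = 0.000126). In knockout mice it gave 3.84, 3.67, 3.82 and 4.15 when fed and 4.20, 4.51 and 5.30 when fasted. Every fasted knockout mouse lay above every fed one, if only just, in a comparison in which 13.2% of all genes had groups that did not overlap. The difference of 0.80 ± 0.27 was not called (limma adjusted p = 0.129), and it was 0.48 without fasted knockout mouse 3, the highest. The rise in wild-type mice kept its call without any one mouse, at 1.64 to 1.95.

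Promoter sequences from RefSeq (build GRCm38.p6) were available for 7 of the 8 genes, with 8 start sites, and were searched on both strands from 250 bases before to 50 bases after the start. Those printed are the bases before the start, 5′ to 3′ in the direction of the gene, and capitals mark a match. Ciart is shown because its window held 3 E-boxes (CACGTG), beginning at -116, -58 and -44 from the start. Tef, which rose with it, held 1 E-box at each of its 2 start sites, at -127 and -138. Dbp, which rose most, is shown for comparison, since none of the motifs searched was found in its window. Nfil3, which fell, held no E-box but 1 core of the element bound by ROR and REV-ERB receptors (TAGGTCA), read on the opposite strand at -12.
Ciart (chr3:95882229-95882478, minus strand): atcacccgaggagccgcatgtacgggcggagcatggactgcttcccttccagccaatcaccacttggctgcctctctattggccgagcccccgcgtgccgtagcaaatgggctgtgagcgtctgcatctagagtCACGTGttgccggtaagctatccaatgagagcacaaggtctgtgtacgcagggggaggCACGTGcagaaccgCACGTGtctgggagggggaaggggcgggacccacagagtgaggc
Tef, upstream start (chr15:81802423-81802672, plus strand): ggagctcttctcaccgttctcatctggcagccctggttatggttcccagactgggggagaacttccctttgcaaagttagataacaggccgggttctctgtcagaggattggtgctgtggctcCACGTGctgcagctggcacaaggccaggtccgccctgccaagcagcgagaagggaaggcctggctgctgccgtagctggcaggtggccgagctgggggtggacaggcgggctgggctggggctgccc
Tef, downstream start (chr15:81811164-81811413, plus strand): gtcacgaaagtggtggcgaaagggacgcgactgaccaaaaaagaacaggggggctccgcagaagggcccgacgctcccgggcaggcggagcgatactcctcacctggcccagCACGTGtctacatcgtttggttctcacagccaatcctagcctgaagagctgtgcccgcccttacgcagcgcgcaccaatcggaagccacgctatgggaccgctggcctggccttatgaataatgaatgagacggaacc
Dbp (chr7:45704997-45705246, plus strand): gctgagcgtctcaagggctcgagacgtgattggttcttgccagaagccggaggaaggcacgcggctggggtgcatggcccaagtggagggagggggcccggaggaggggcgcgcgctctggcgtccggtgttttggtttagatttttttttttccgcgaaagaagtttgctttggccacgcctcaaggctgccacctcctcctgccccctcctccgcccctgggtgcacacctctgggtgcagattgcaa
Nfil3 (chr13:52981040-52981289, minus strand): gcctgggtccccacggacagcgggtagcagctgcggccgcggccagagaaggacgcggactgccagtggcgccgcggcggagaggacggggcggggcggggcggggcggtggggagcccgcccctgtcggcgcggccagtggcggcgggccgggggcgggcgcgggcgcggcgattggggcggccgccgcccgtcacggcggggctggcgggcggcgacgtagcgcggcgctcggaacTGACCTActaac

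An E-box was found for 3 of the 7 genes (Ciart, Tef and Bhlhe41, the last at -153), and 7.15% of all 32851 promoter windows of this length held one. At least 3 E-boxes, as for Ciart, stood in 29 windows (0.0883%). The ROR core was in 2.61% of all windows. The letters TGACGT, part of a cAMP response element, were found for Hlf, where overlapping matches on both strands at -9 and -7 make 1 palindrome, and for Usp2, across the start at -4, and in 7.51% of all windows. The D-box (TTANGTAA, 2.32% of windows), the E-box variant CACGTT (4.68%) and the full palindromic glucocorticoid response element (0.00913%) were found in none of the members' windows. A match describes the letters only, and the absence of one says nothing about sites outside the window.

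The next comparison asked whether the knockout changed these genes. Among fed mice none of the 8 genes was called by limma, where 0.677% of all genes were, and none had an unadjusted p under 0.05, where 13.2% of all genes did. All 8 had groups that overlapped, where 6.7% of all genes had groups that did not. For Dbp the difference was 0.39 ± 0.42 (limma adjusted p = 0.73, 95% interval -0.50 to 1.27), and it was 0.11 without fed knockout mouse 3. Among fasted mice none was called either, where 0.537% of all genes were, while 4 of the 8 had an unadjusted p under 0.05, as 10.4% of all genes did. The difference was negative for 7 of the 8, as for 57% of all genes. The median difference was -0.40, beside -0.02 over all genes. Ciart was counted here on its brighter probe set, and on the second its unadjusted p was 0.00649 in the limma fit. The knockout minus wild-type difference of Dbp was -1.49 ± 0.43, from 6.39 ± 1.06 (SD, n = 5) in wild-type to 4.90 ± 0.31 (SD, n = 3) in knockout mice (limma adjusted p = 0.177, 95% interval -2.40 to -0.58). That was the 18th largest difference of all genes tested, ranked by size without regard to spread. The SD of Dbp in fasted wild-type mice was larger than that of 99.8% of all genes.

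In that comparison fasted wild-type mouse 2, at 4.79, lay within the knockout range for Dbp and the other 4 wild-type mice lay above it. Without mouse 2 the Dbp difference was -1.89 and passed (limma adjusted p = 0.0126), and without any other single mouse it did not. The same difference was -0.67 ± 0.26 for Usp2 (limma adjusted p = 0.365), -0.52 ± 0.22 for Tef (limma adjusted p = 0.436) and -0.29 ± 0.10 for Hlf (limma adjusted p = 0.281). For Hlf every fasted knockout mouse, at 5.85 to 5.93, lay below every wild-type one, at 6.02 and above; 8.25% of all genes had groups that did not overlap in this comparison. Nfil3 was the member with the opposite sign, at 0.50 ± 0.29 (limma adjusted p = 0.606), and 0.22 without fasted knockout mouse 1. The Usp2 difference was -0.43 without that mouse.

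**Figure D2:**
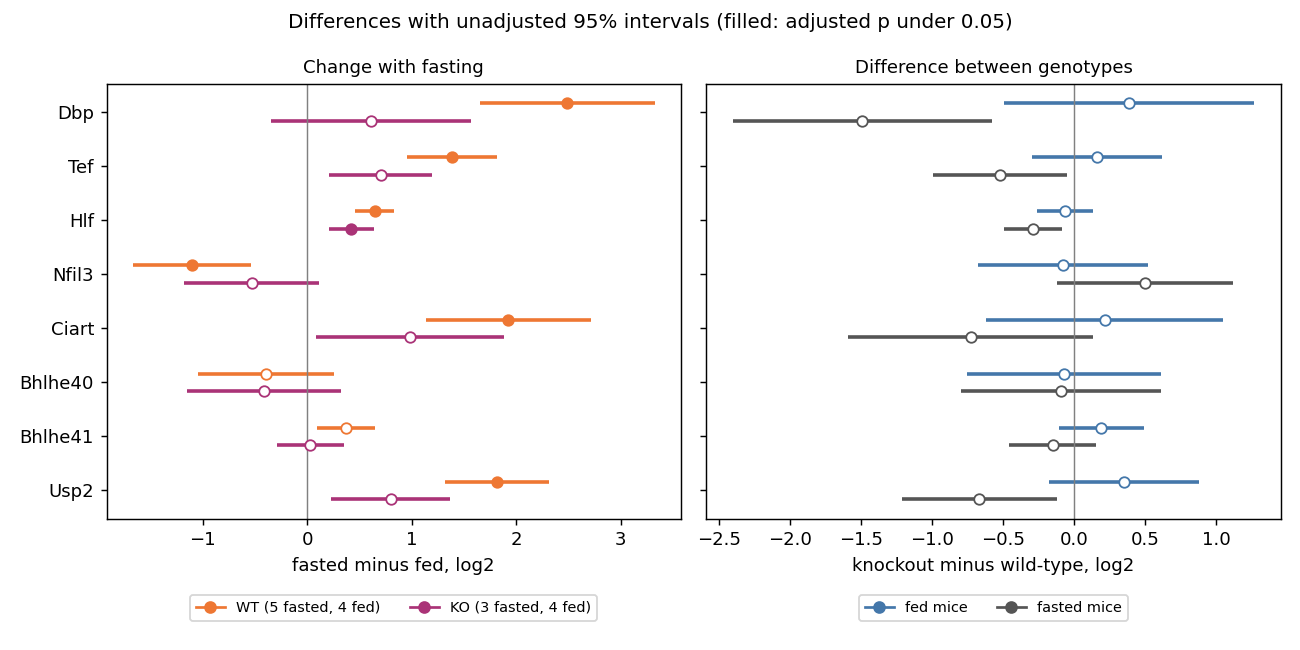
Log2 differences (x axis) of the 8 genes (y axis) with unadjusted 95% intervals of the limma fit; left, fasted minus fed in each genotype; right, knockout minus wild-type in each feeding state. Filled points passed at adjusted p under 0.05: 6 genes for fasting in wild-type mice, Hlf for fasting in knockout mice and none between genotypes.

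Whether fasting acted differently in the 2 genotypes was tested as the difference between the fasting differences, knockout minus wild-type. No member was called by limma, and 2 of all 19935 genes (0.01%) were. An unadjusted p under 0.05 was found for 3 of the 8 members and for 12.2% of all genes. The value was -1.88 ± 0.60 for Dbp (limma adjusted p = 0.271, 95% interval -3.15 to -0.61), -1.02 ± 0.36 for Usp2 (limma adjusted p = 0.293) and -0.68 ± 0.31 for Tef (limma adjusted p = 0.385). It was -0.23 ± 0.13 for Hlf, -0.94 ± 0.57 for Ciart on its brighter probe set and 0.57 ± 0.41 for Nfil3. The Nfil3 value was toward a smaller fall in knockout mice. With 1 mouse left out the genotype difference ran from -1.50 to -0.50 for Ciart on that probe set (without fasted knockout mice 3 and 1). It ran from 0.30 to 0.79 for Nfil3 (without fasted knockout mice 1 and 2). On the second Ciart probe set it was -1.42 ± 0.63 (limma adjusted p = 0.365 over all probe sets with 1 symbol, 95% interval -2.74 to -0.10). A smaller fasting response in knockout mice was therefore not shown for any member. The intervals of Dbp, Usp2, Tef and the second Ciart probe set did lie below 0 before adjustment. For the mean knockout effect over feeding states none of the 8 was called (1.55% of all genes were, 0.963% up and 0.587% down). Of the 8, 1 had an unadjusted p under 0.05 (10.8% of all genes did), Hlf at -0.17 ± 0.07 (limma adjusted p = 0.312). These counts use the brighter Ciart probe set. On the second the mean effect was -0.69 ± 0.31, with an unadjusted p of 0.0422 in the limma fit.

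Mice of one group differed more in several of these genes than in most others. In fasted wild-type mice the SD of Dbp, 1.06, was larger than that of 99.8% of all genes, whose median SD was 0.14, and its highest and lowest mice were 7.28-fold apart. Ciart (SD 0.81, 4.79-fold), Usp2 (SD 0.48, 2.36-fold), Nfil3 (SD 0.46, 2.11-fold) and Tef (SD 0.41, 1.88-fold) spread widely too. In fed wild-type mice the SD was 0.13 for Dbp, near the median gene (0.12), 0.03 for Tef, 0.05 for Hlf, 0.08 for Bhlhe41 and 0.19 for Ciart. Nfil3 (SD 0.41), Bhlhe40 (SD 0.57) and Usp2 (SD 0.30) spread widely in these fed mice too, above 97.8%, 98.9% and 94.6% of all genes. For Dbp the order was the other way in knockout mice, whose SD was 0.57 when fed and 0.31 when fasted. The limma fit uses 1 spread for all groups of a gene, although the SDs of a gene differ between groups in this way.

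The same mice stood at the ends for several members. Fasted wild-type mouse 2 was the lowest of its group for Dbp, Tef, Hlf, Bhlhe41 and both probe sets of Ciart, and the highest for Nfil3. Several of its core clock values went with that. It had the highest Arntl (5.41, the others 4.43 to 4.86) and Cry1 (4.91, the others 4.06 to 4.42) and the lowest Per3 (3.44, the others 3.89 to 4.91) of the fasted wild-type mice. It was not the lowest for Per1 (5.94, mouse 1 at 5.64) or Cry2 (5.73, mouse 4 at 5.60). Fasted wild-type mouse 3 was the highest for Dbp and Per3, and mouse 5 for Tef, Hlf, Usp2 and the brighter Ciart probe set. Mouse 5 also stood apart in pancreas markers: its score over 6 pancreas markers was 2.36, where the other 15 mice had -0.34 to 0.34. The part of this in the results was not tested, but without mouse 5 the count of members called was 6 as well, with Dbp at 2.35 and Ciart at 1.67.

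Among fed knockout mice, number 3 was the highest for Dbp, Tef, Hlf and both Ciart probe sets and the lowest for Nfil3. It also had the lowest Arntl (5.46, the others 5.71 to 6.14) and the highest Nr1d1 (8.38) and Per3 (3.18) of its group. Fed knockout mouse 1 had the lowest Dbp and Tef and the highest Nfil3, with Nr1d1 at 4.05 where the other 15 mice had 6.15 to 8.38. Its Per1 (5.06) and Per2 (4.68) were nevertheless the highest of its group. Among fasted knockout mice, number 1 was the lowest for all members but Nfil3, for which it was the highest.

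**Figure D3:**
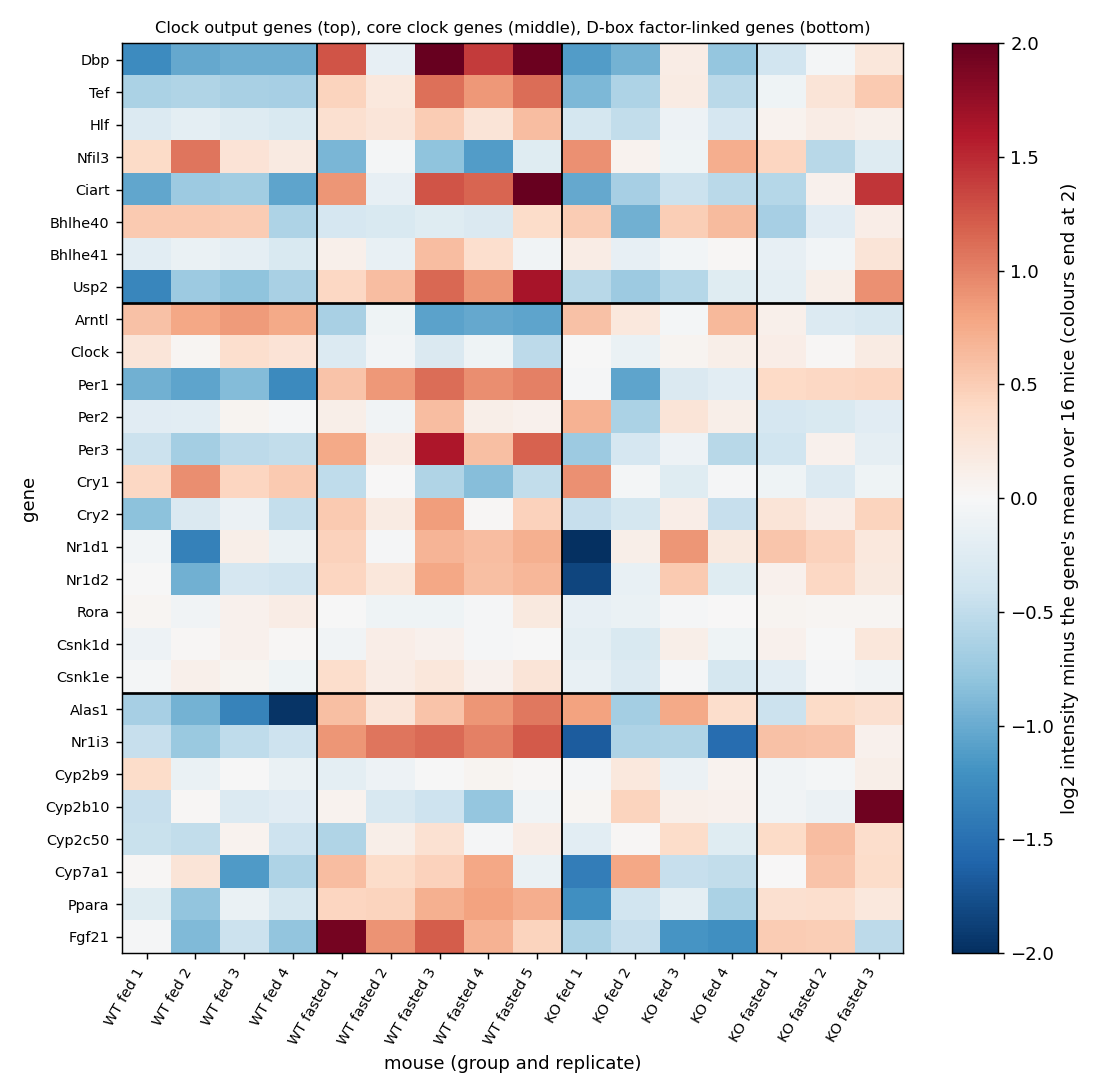
Log2 intensity minus the gene's mean over the 16 mice (colour, ending at -2 and 2) for the 8 clock output genes, 12 core clock genes and 8 genes linked to the D-box factors (rows, y axis) in each mouse (columns, x axis). Fasted wild-type mouse 2 is paler than its group for Dbp, Tef and Ciart, and fed knockout mouse 3 is warmer than its group for the same genes.

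Of 15 core clock genes listed for comparison, 12 were measured. In wild-type mice 3 rose with fasting, 3 fell and 6 were not called, where 3.3% of all genes were called up and 5.92% down. Per1 rose by 1.94 ± 0.16. Per3, a period gene that the PAR bZIP factors also drive, rose by 1.39 ± 0.22 (limma adjusted p = 0.00057) and Cry2, a repressor of CLOCK and BMAL1, rose by 0.83 ± 0.17 (limma adjusted p = 0.00469). Cry1, the second cryptochrome, fell by 1.07 ± 0.20 (limma adjusted p = 0.00248), Clock fell by 0.47 ± 0.09 (limma adjusted p = 0.00412) and Arntl fell by 1.52 ± 0.18. The REV-ERB genes Nr1d1 (0.84 ± 0.60, limma adjusted p = 0.431) and Nr1d2 (0.96 ± 0.32, limma adjusted p = 0.0757), which repress Arntl and Nfil3, were not called, and fed wild-type mouse 2 was low in both, at 6.15 and 5.86. In knockout mice 1 of the 12 rose, Per1 (0.81 ± 0.19, limma adjusted p = 0.021), none fell and 11 were not called. Of all genes 1.87% were called up there and 1.8% down. The Per1 call was lost without any one of the 3 fasted knockout mice (limma adjusted p between 0.0653 and 0.0843). The median of the 12 was 0.24 in wild-type and 0.17 in knockout mice, beside 0.02 and -0.02 over all genes. Rises and falls offset each other in these medians, so they do not give the size of the changes. In knockout mice the difference was -0.515 for Arntl, 0.27 for Per3, -0.30 for Cry1, 0.57 for Cry2 and 0.10 for Clock. For the genotype difference in the fasting response none of the 12 was called, where 0.01% of all genes were. Per1 came nearest there, at -1.13 ± 0.25 (limma adjusted p = 0.15). Between genotypes none of the 12 was called in fed or in fasted mice, where 0.677% and 0.537% of all genes were. Per3 came nearest, with a knockout minus wild-type difference of -1.03 ± 0.24 in fasted mice (limma adjusted p = 0.0621) with every knockout mouse below every wild-type one. In the mean knockout effect over both feeding states Csnk1e, a kinase of the PER proteins, was called at -0.26 (limma adjusted p = 0.0421), and 13 of the 16 single mice left out ended that call, with adjusted p up to 0.119.

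Of 11 genes known to respond to PAR bZIP factors or NFIL3 in liver, 8 were measured by a probe set of their own. In wild-type mice 4 rose with fasting and 4 were not called, where 3.3% of all genes were called up. The median was 0.90, beside 0.02 over all genes. Alas1, the first and rate-limiting enzyme of heme synthesis, rose by 1.90 ± 0.30 (limma adjusted p = 0.000612). Nr1i3, the xenobiotic receptor CAR, rose by 1.60 ± 0.19 (limma adjusted p = 6.3e-05). The other 2 were Ppara and the hormone gene Fgf21. Genes of this list can answer to fasting through other regulators too, and which of them acted here was not tested. In knockout mice 2 rose (Nr1i3 and Ppara) and 6 were not called, where 1.87% of all genes were called up. The median was 0.58, beside -0.02 over all genes. The Ppara call was lost without fasted knockout mouse 1 or 2 (limma adjusted p = 0.0577 and 0.0678) and without fed knockout mice 1 and 4 together (limma adjusted p = 0.122). Alas1 gave 8.98, 8.70, 8.30 and 7.68 in fed wild-type mice and 10.43, 8.96, 10.39 and 9.99 in fed knockout mice, and was higher in the latter by 1.53 ± 0.31 (limma adjusted p = 0.0325) although fed knockout mouse 2 lay at the wild-type level. That call was lost without 6 of the 8 fed mice, all but fed wild-type mouse 1 and fed knockout mouse 2 (limma adjusted p between 0.0539 and 0.102), and without fed knockout mice 1 and 4 together (difference 1.26, limma adjusted p = 0.298). The cytochrome P450 genes of the list, Cyp2b9, Cyp2b10, Cyp2c50 and Cyp7a1, were not called in any comparison. The mean knockout effect of Nr1i3 was -0.61 ± 0.15 (limma adjusted p = 0.0442), a call that 13 of the 16 single mice left out ended, with adjusted p up to 0.154.

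**Figure D4:**
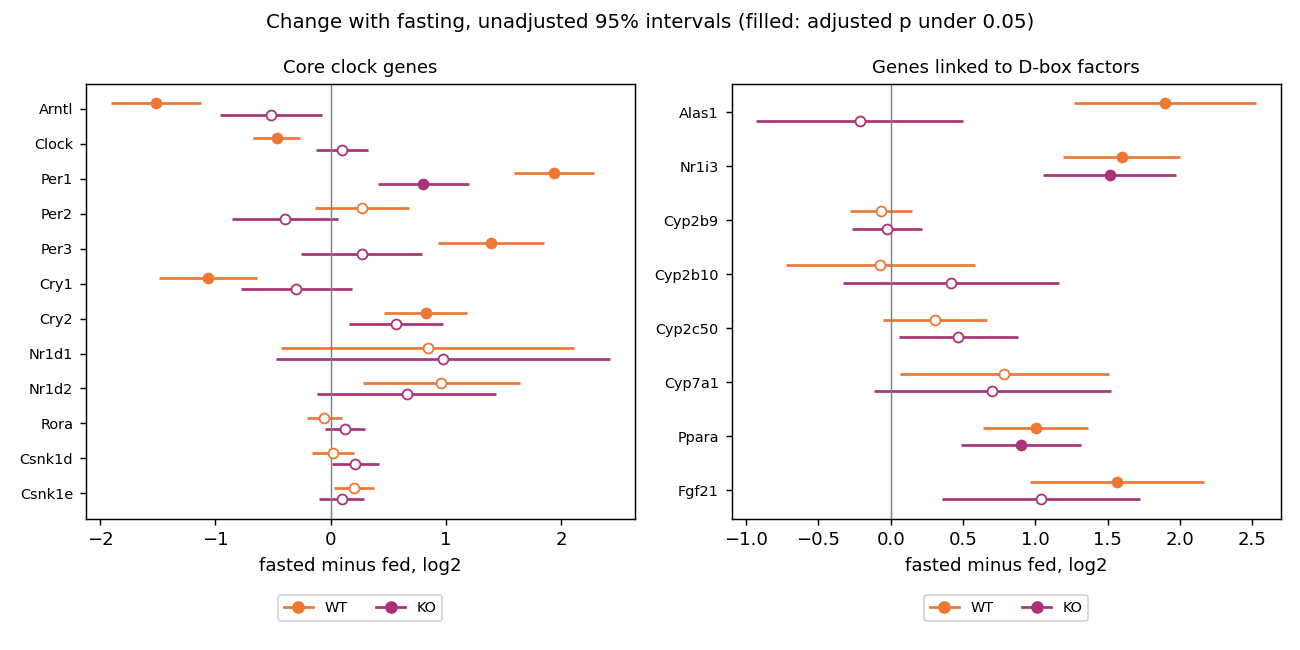
Fasted minus fed differences (x axis, log2) with unadjusted 95% intervals of 12 core clock genes (left) and 8 genes linked to the D-box factors (right), named on the y axis, in wild-type and knockout mice. Filled points passed at adjusted p under 0.05: 6 and 4 genes in wild-type mice, 1 and 2 in knockout mice.

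To see which genes had the pattern most like each called member, the root mean square difference was taken between log2 values centred on each gene's mean over the 16 mice, among 11337 brighter named genes. The nearest gene to Dbp was Per3, at 0.55, followed by Sall1 (0.67) and Per1 (0.70), where the SD of Dbp itself over the mice was 1.22. Nearest to Tef (SD 0.68) were Bche (0.28), Slc25a32 (0.29) and Per3 (0.29), and nearest to Nfil3 (SD 0.64) were Cry1 (0.30), Tmem150a (0.30) and Tuba4a (0.31). For Hlf (SD 0.33) they were Plpp3 (0.12), Amy1 (0.13) and Slc19a1 (0.14), for Ciart (SD 1.02) Tmc7 (0.48), Lpin2 (0.54) and Ddit4 (0.54), and for Usp2 (SD 0.85) Il6ra (0.37), Rhbdd2 (0.37) and Lipg (0.37). All mice are shared between these profiles, and fasted and fed groups stand apart in them.

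Hepatocyte markers were high throughout, with 6 of 6 measured above the dim limit and a summed intensity of 19314 to 22038 in every mouse. Kupffer cell markers summed to 769 to 858 in fed knockout mice and 364 to 700 in the other groups. The endothelial score ran from -0.32 to 0.25, that of cholangiocytes from -0.21 to 0.44 and that of lymphocytes, with 2 of 5 markers above the dim limit, from -0.16 to 0.17 over the 16 mice. Immediate early genes, which respond within minutes to stress, scored from -0.93 to 1.25, with fed knockout mouse 1 and fed wild-type mouse 3 (1.06) at the top. Fewer cells of a type and less RNA per cell cannot be told apart in whole liver. Ppard itself had a knockout minus wild-type difference of -0.39 ± 0.15 in fed and -0.08 ± 0.16 in fasted mice (limma adjusted p = 0.266 and 0.908), which checks nothing about the genotype, since it is not known whether the probes lie in the deleted part.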

How the data were processed

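Total RNA from 16 mouse livers was measured on Affymetrix arrays. The authors deposited normalized intensity values made with RMA, per the submitters' processing notes. The sources used here do not give the software version or the genome build. Array medians of intensity were 8.08 to 8.61, which alone does not tell the scale. The deposited values of the 6 hepatocyte markers summed to 19314 to 22038 in each mouse, too high for log2 values. The values were thus read as linear, and log2 was taken before any test. Of 35519 probe sets, 21780 had 1 symbol, 1605 several and 12134 none in the platform annotation. A gene was read from its probe set with the highest mean, giving 19935 genes.

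One limma fit (version 3.58.1 in R 4.3.3; lmFit and eBayes, two-sided) of 4 group means gave 6 contrasts, with 12 residual and 4.55 prior degrees of freedom. The fit was tested on simulated data. The number of arrays limits the precision. Genes under the 40th percentile of mean level (log2 2.79) were taken as dim.

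Members, gene lists, tests and alternatives were chosen with earlier results of these data known. The text names the 8 members, called members of the 2 gene lists, the 3 nearest genes of each called member and Ppard. Core clock and other list genes that are named without a call were chosen after their values were seen. Alternatives were other normalizations, filters, probe set rules, variance models, a replicate block, fits of 2 groups and arrays left out. Mice were taken as unpaired. Of 21 same-numbered pairs, 5 had deviations over all genes correlated above 0.1 (-0.22 to 0.21). Pairs with unlike numbers were not compared, so this cannot decide whether the numbers pair the mice. With the number as a block, standard errors for fasting in wild-type mice were smaller for Dbp, Tef, Hlf, Ciart, Bhlhe41 and Usp2. That of Usp2 went from 0.236 to 0.15. They were larger for Nfil3 (0.268 to 0.281) and Bhlhe40 (0.306 to 0.322). Cell type and state markers were hepatocyte, Kupffer cell, sinusoidal endothelial, stellate, cholangiocyte, lymphocyte, pancreas, acute phase and immediate early lists.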

Additional observations from a re-analysis of the deposited data

Results flagged for a closer look

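Of 27 sets of values tested, 1 for each probe set of a clock output gene in each group of 4 or 5 mice, 4 had a mouse far from the others of its group, where chance gives about 1 in 20. For Bhlhe40 it happened in each of these 3 groups: fed wild-type mouse 4 was low at 5.35 (the others 6.48 to 6.50), fasted wild-type mouse 5 was high at 6.34 (the others 5.64 to 5.74) and fed knockout mouse 2 was low at 5.01 (the others 6.46 to 6.60). The fourth was Ciart on its dimmer probe set, where fed wild-type mouse 1 was at 2.21 and the others at 2.30 to 2.32, a gap of little size in a dim range.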

How the results depend on the processing

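Of 7 calls of single members, 5 held under every alternative run: the rises of Dbp, Tef, Hlf, Ciart and Usp2 with fasting in wild-type mice. No called value changed sign. For fasting in knockout mice the number of members called, 1, became 3 with the replicate number as a block (Tef at 0.71 and Usp2 at 0.87 joined Hlf; no other call changed with it), 0 in a fit of those 2 groups alone and 0 without fed knockout mice 1 and 4, where fewer arrays entered; it was 0 to 2 with 1 mouse left out. It was 5 to 7 for fasting in wild-type mice and 0 to 1 for the knockout effect in fasted mice. Values called in no setting that changed sign were those of Bhlhe40 for the genotype difference (0.053 with median centring, 0.067 with the block, 0.383 without fed knockout mice 1 and 4) and, with array weights, for the knockout effect in fed mice (0.033), in fasted mice (0.002) and on average (0.018), and of Bhlhe41 for the mean effect (-0.007 with the block, -0.026 without mice 1 and 4); the cause was not tested. With 1 mouse left out, such values ran from -0.398 to 0.263, -0.353 to 0.308, -0.283 to 0.117 and -0.221 to 0.109 for Bhlhe40 in the same order of comparisons, from -0.096 to 0.12 (fasting in knockout mice) and -0.041 to 0.078 (mean effect) for Bhlhe41, and, for the knockout effect in fed mice, from -0.244 to 0.123 for Nfil3 and -0.047 to 0.305 for Tef. Over all genes the calls were 1838, 732, 135, 107, 2 and 309 in the order fasting in wild-type and knockout mice, knockout in fed and fasted mice, genotype difference and mean effect; with 1 mouse left out they were 1199 to 1675, 330 to 951, 59 to 274, 21 to 109, 0 to 8 and 175 to 359. Without fed knockout mice 1 and 4 the fasting calls in knockout mice were 218, those of knockout in fed mice 51 and those of the mean effect 171; array weights gave 185 for knockout in fasted mice, a fit of 2 groups 401 for fasting in knockout mice, and leaving out dim genes 1 for the genotype difference. Scaling moved the split of calls up and down: 658 and 1180 for fasting in wild-type mice became 847 and 974 with quantile normalization, and with median centring 373 and 359 for fasting in knockout mice became 401 and 240 and 70 and 37 for knockout in fasted mice became 98 and 31. Among the members, dim levels limit Ciart in fed mice and Bhlhe41 throughout. Bhlhe41 was not tested where dim genes were left out.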
